A study of Mus musculus with 12 samples.

Results

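The comparison set tomato+ vascular endothelial cells (VEC) against tomato+ cortical thymic epithelial cells (cTEC), the 2 thymic populations of the series that were sorted as positive for a Kit ligand reporter. Its members were chosen by label alone: the 3 tomato+ VEC libraries and the 3 tomato+ cTEC libraries, 6 of the 12 libraries of the series. All came from C57 BL6 mice that carry a KitL-tomato reporter, in which a red fluorescent protein reports Kitl, so reporter and strain were shared by both groups. VEC were sorted as Lin- Dapi- EpCAM- CD31+ tomato+ cells and cTEC as Lin- Dapi- EpCAM+ CD31- UEA1- Ly51+ tomato+ cells. Age, sex and the number of mice behind a library were not given in the sources used here, and nothing in the labels ties a replicate to an animal of its own, so the tests speak only of variation among these libraries, which may be technical. Both groups were also selected on reporter brightness, and the tomato- populations of the series were not part of the comparison.

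The thymus builds T cells from progenitors that arrive through the blood, and its stroma supplies what those progenitors need. Endothelium admits and retains leukocytes through selectins, chemokines and adhesion molecules, exchanges lipids and solutes with the blood and lays down a vascular basement membrane. Cortical epithelium depends on Foxn1, provides interleukin 7, chemokines and the Notch ligand Dll4 to immature thymocytes, and shows them peptides on MHC molecules made with cortex-specific proteases. Kit ligand is a membrane-bound or secreted growth factor for cells that carry the receptor tyrosine kinase Kit.

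Total counts were 8448280 to 10786569 per library, and 13691 to 14346 genes were detected in VEC against 15086 to 15605 in cTEC. The sort gates were checked on the genes behind them and on summed markers, in CPM (counts scaled to library size with TMM factors, used for all levels here). Values are given for replicates 1, 2 and 3 of a group; where a sentence calls a gene higher in a group, that group's values come first, and otherwise VEC comes first. Pecam1, which encodes CD31, stood at 2627, 2373 and 3378 CPM in VEC and at 1.74, 109.7 and 0.435 in cTEC. Epcam had no count in VEC and 256, 250.5 and 213 CPM in cTEC, and Enpep, which encodes Ly51, stood at 0, 0.392 and 0.541 against 102, 103 and 65.3. The 12 endothelial markers summed to 10794 to 11433 CPM in VEC. In cTEC they summed to 28.3, 482 and 6.01 CPM in replicates 1 to 3, which is 0.257%, 4.37% and 0.0544% of the VEC mean. cTEC replicate 2 thus stood apart in its endothelial transcripts. The 11 thymocyte markers summed to 80.4 to 140 CPM in cTEC and 4.83 to 22.0 in VEC, with Cd3e, Cd3g and Cd8a at 0 in VEC. The 10 mesenchymal and mural markers summed to 1957 to 2373 CPM in cTEC, most of it Dcn, and 22.2 to 57.3 in VEC. Of the other lists, B cell markers summed to at most 2.52 CPM in cTEC and 9.40 in VEC, erythroid and platelet markers to at most 2.18 and 7.97, and myeloid markers to at most 178 (replicate 3) and 48.1. Epithelial markers summed to 4447 to 4997 CPM in cTEC and at most 8.65 in VEC. Cortical markers summed to 15869 to 19150 CPM in cTEC and at most 2989 in VEC. Of these 10 cortical markers 3 were above 1 CPM on average in VEC, where Cxcl12 and Ctsl made up most of the sum. Lymphatic endothelial markers, which include Ccl21a, summed to 1040 to 1192 CPM in cTEC and at most 63.2 in VEC. Of these 6 lymphatic markers 2 were above 1 CPM on average in cTEC and 2 in VEC. Pdpn and Ccl21a were higher in cTEC, and Flt4 was higher in VEC. In bulk libraries such as these, fewer cells of a type and less RNA per cell cannot be told apart.

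Of 12510 genes tested with edgeR's quasi-likelihood test, 1151 were higher in VEC (9.2%) and 1599 were higher in cTEC (12.8%) at a Benjamini-Hochberg adjusted p under 0.05. Without cTEC replicate 2 these counts were 926 (7.11%) and 1342 (10.3%) of 13017, and 2048 genes were called in both fits. Without cTEC replicate 1 or replicate 3 the count higher in VEC fell to 720 and 734. Genes higher in VEC made up 41.9% of calls, 39.3% with limma voom on the same counts and 31.2% with limma-trend on log2(RPKM + 1) of the deposited values, which changes both the unit and the test. The median log2 difference (VEC minus cTEC) over all genes tested was -0.04.

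The 8 largest changes in each direction, without overlap of the groups, included the lectins Clec1a and Clec9a on the VEC side and Epcam, Ccrl1, Fxyd2 and Fxyd3 on the cTEC side. Slc28a2, a nucleoside transporter, had 223, 183 and 138 CPM in VEC and no count in cTEC, at least 1971-fold higher when 3 counts in the whole group are taken as the floor. Clec1a, a C-type lectin of endothelium, had 304, 260.1 and 66.8 CPM in VEC and a ratio of 3392-fold (95% counting interval 939 to 28015). The others higher in VEC with no cTEC count were Nepn (at least 1007-fold), Scgb3a1 (at least 668-fold), Bik (at least 519.6-fold), Nts (at least 482-fold), Cyyr1 (at least 455-fold) and Clec9a (at least 335-fold). In the other direction Crip3 had 394, 565 and 691 CPM in cTEC and none in VEC, at least 4889.9-fold higher. Fxyd2 and Fxyd3, small regulators of the sodium pump, had at least 3033-fold and at least 2159.7-fold higher levels, and Pla2g7, which hydrolyses platelet-activating factor, and Gria3, a glutamate receptor subunit, followed with at least 1374-fold and at least 1292-fold. Bpifa1, a secreted airway protein, had no VEC count and varied widely across cTEC, at 106, 506 and 1091 CPM.

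The lists on signals, receptors, adhesion, matrix and metabolism differed in which side their called members took. Of 177 signal genes tested, 36 were higher in VEC and 65 in cTEC, against backgrounds of 9.2% and 12.8% over all genes. Receptors split 54 to 47 of 186, adhesion genes 17 to 26 of 70, matrix genes 37 to 49 of 135 and metabolic genes 48 to 63 of 282. Without cTEC replicate 2 the splits were 32 to 58, 56 to 38, 25 to 23, 36 to 37 and 40 to 53. The lists were compiled with earlier results of these data known and hold genes chosen for these cell types, so their shares are a description. In any list, a member with almost no count in a group was tested through the other group and could differ only in that direction. The backgrounds of 9.2% and 12.8% apply to every list below.

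**Figure D1:**
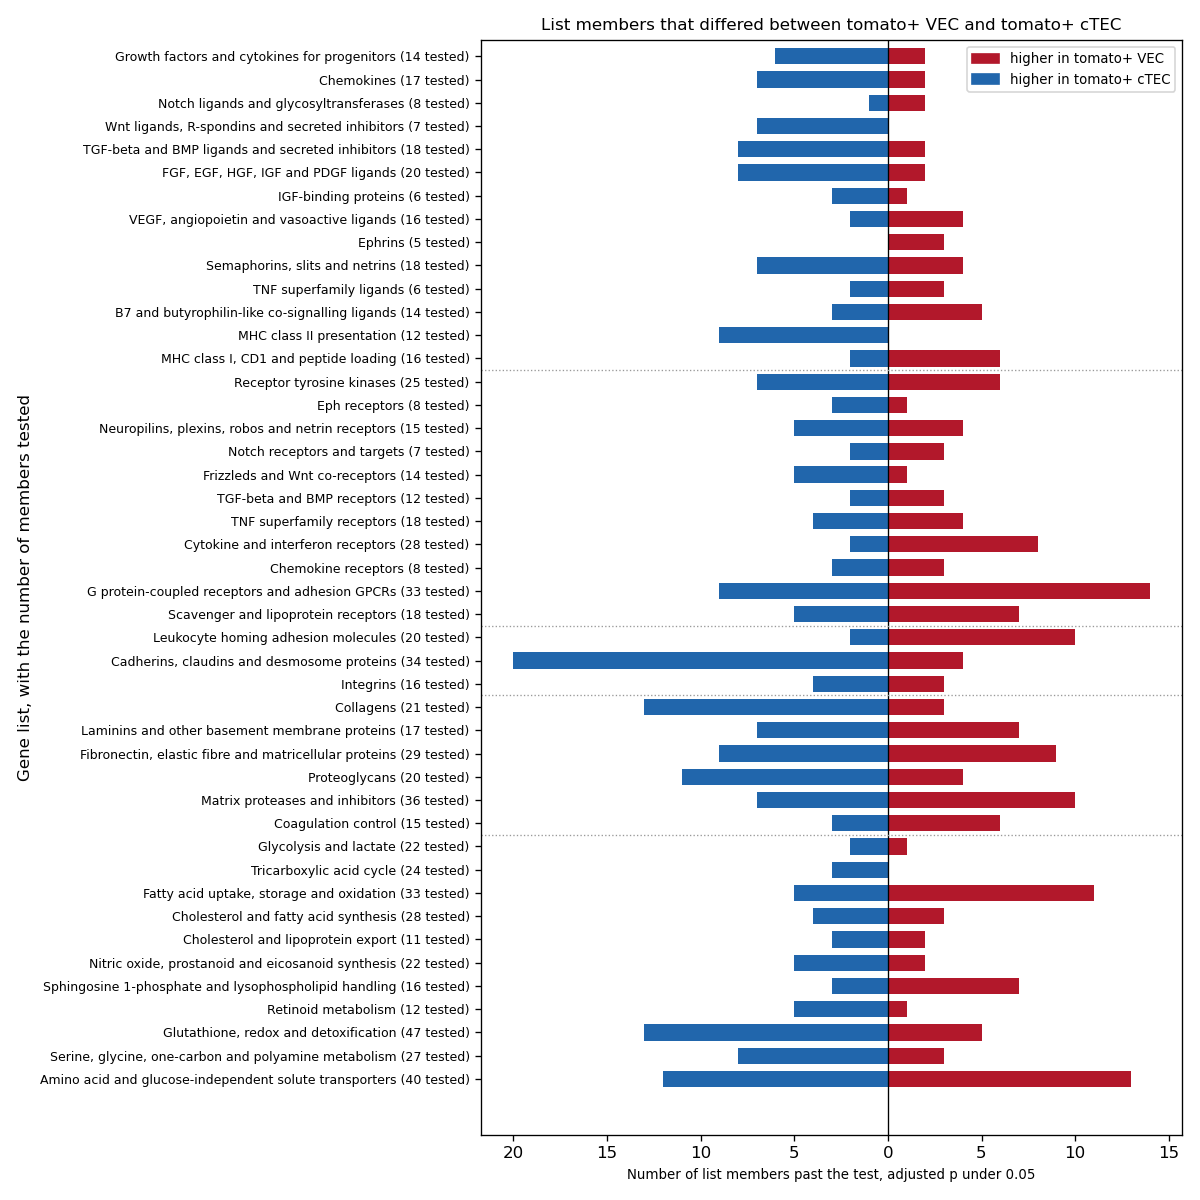
Number of members of each list past the test (x axis, counted from 0 to both sides) for the lists on signals, receptors, adhesion, matrix and metabolism (y axis, with the number of members tested), separated by role. Red bars to the right count genes higher in tomato+ VEC and blue bars to the left genes higher in tomato+ cTEC, with the longest bar at 20 cadherins, claudins and desmosome proteins higher in cTEC.

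The growth factors and cytokines that act on progenitors were divided between the populations. Of 28 such genes 14 were tested, with 2 higher in VEC (Kitl and Il6) and 6 higher in cTEC. Kitl stood at 804, 1544 and 783 CPM in VEC and 182, 238 and 251 in cTEC. Every VEC library exceeded every cTEC library, although all 6 came from reporter-positive cells. The difference was 2.22 ± 0.33 on the log2 scale (± SE, adjusted p = 0.00427; 0.0122 without cTEC replicate 2). Kit, the receptor, stood at 7.13, 29.3 and 99.5 CPM in VEC and 0.457, 0.199 and 3.92 in cTEC and did not pass the test (adjusted p = 0.0548). Il6, an inflammatory cytokine, was a VEC transcript at 1061, 902 and 870.5 CPM against 0.274, 8.16 and 0.435, a difference of 8.33 ± 1.33 (adjusted p = 0.00585).

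The other 6 cytokines called were higher in cTEC. Il7, the survival factor of early thymocytes, stood at 0.103, 0 and 0.324 CPM in VEC and 414, 469 and 559 in cTEC, 11.54 ± 0.63 higher in cTEC on the log2 scale (adjusted p = 8.99e-05). Il33, an alarmin kept in the nucleus of barrier cells, followed the same pattern at 0, 0.914 and 0.324 against 548, 738 and 766 CPM (difference 10.74 ± 0.85, adjusted p = 0.000321). Il34, a ligand of the macrophage receptor Csf1r, had no VEC count and 18.5, 30.6 and 40 CPM in cTEC, at least 264-fold higher. Ctf1, Il23a and Thpo made up the 6, at 7.04, 6.66 and 10.5 (Ctf1), 16.3, 2.79 and 6.35 (Il23a) and 2.29, 14 and 6.18 (Thpo) CPM in cTEC. Thpo no longer passed in any of the 6 fits that each left out 1 library (adjusted p up to 0.0886, without cTEC replicate 2) and Il23a without cTEC replicate 3 (adjusted p = 0.0533). Csf1, the other Csf1r ligand, did not pass the test, with 59.5, 93.1 and 53.5 CPM in VEC and 121, 77.4 and 66.3 in cTEC (adjusted p = 0.593), and its groups overlapped. Flt3l, the ligand of the progenitor receptor Flt3, stood at 28.8, 6.92 and 11.1 against 4.02, 10.6 and 5.57 CPM, also with overlap (adjusted p = 0.419).

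Chemokines were called more often for cTEC. Of 27, 17 were tested, with 2 higher in VEC and 7 in cTEC, and the median log2 difference of the tested members was -2.70. The cTEC count was 4 without cTEC replicate 1, 2 or 3. Ccl25, which draws Ccr9-bearing progenitors, stood at 0.31, 18.2 and 0.216 CPM in VEC and 3131, 4515 and 4191 in cTEC (difference 9.33 ± 1.77, adjusted p = 0.0103). Ccl21a, a Ccr7 ligand better known from medulla and lymphatics and with near-identical gene copies that reads could not be told apart from, stood at 2.58, 0.784 and 1.08 against 457, 219 and 518 CPM (adjusted p = 0.000321). The 10 medullary markers, to which Ccl21a, Krt5 and Krt14 belong, summed to 804 to 1377 CPM in cTEC and 10.4 to 86.4 in VEC, and their part in this result was not tested. Ccl7, which draws monocytes, had the smallest p of the list at 0.31, 0.392 and 0.324 against 201, 203 and 172 CPM (adjusted p = 3.36e-05). VEC held Cxcl1, which draws neutrophils, at 446, 552 and 637 CPM against 71.6, 179.8 and 132, and the interferon-induced Cxcl9 at 1193, 691 and 333 against 0.549, 11.7 and 18.6. Cxcl10, from the same interferon family as Cxcl9, stood at 119, 31.7 and 528 CPM in VEC and 933, 944 and 2547 in cTEC and did not pass (adjusted p = 0.0955), while Cxcl11, the remaining member of this interferon-induced group, was higher in cTEC at 11, 3.48 and 18.1 CPM with no count in VEC (at least 99-fold).

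Cxcl12, which attracts progenitors through Cxcr4, was abundant on both sides. It stood at 2028, 1410.5 and 1459 CPM in VEC and 1244, 1250.3 and 935 in cTEC, a difference of 0.51 ± 0.23 that did not pass (adjusted p = 0.184). All 3 VEC libraries nonetheless lay above all 3 cTEC libraries. Among Notch ligands Dll4, the ligand that commits progenitors to the T lineage, was present in both and higher in VEC, at 176, 117 and 105 against 23, 49.1 and 37.9 CPM (difference 1.86 ± 0.39, adjusted p = 0.0142). Jag1 did not pass, with 533, 447 and 519 CPM in VEC and 630.1, 653 and 434 in cTEC. Mfng, a glycosyltransferase that tunes Notch receptors, was higher in VEC (51.2, 9.14 and 72.3 against 0.0914, 3.58 and 1.22 CPM) and Dlk2, a non-canonical Notch ligand, was higher in cTEC (39, 28.6 and 21.9 against 1.03, 0 and 0). Mfng no longer passed in 4 of the 6 fits that each left out 1 library (adjusted p up to 0.147), Dlk2 in 3 of these fits (adjusted p up to 0.0932, and 0.0681 without cTEC replicate 2) and Dll4 without cTEC replicate 3 (adjusted p = 0.0544).

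The stretches upstream of the annotated starts of Cxcl12 and Dll4 are shown because both genes encode progenitor signals found in both populations. They are RefSeq windows on GRCm38.p6, at chr6:117168285-117168534 and chr2:119325565-119325783, both on the + strand, and they leave out bases under an annotated exon. Capitals mark each GC box, searched as GGGCGG on both strands.
Cxcl12: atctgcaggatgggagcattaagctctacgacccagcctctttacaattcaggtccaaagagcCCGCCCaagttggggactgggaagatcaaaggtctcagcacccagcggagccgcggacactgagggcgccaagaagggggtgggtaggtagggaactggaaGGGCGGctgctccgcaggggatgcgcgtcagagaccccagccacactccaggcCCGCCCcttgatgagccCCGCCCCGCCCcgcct
Dll4: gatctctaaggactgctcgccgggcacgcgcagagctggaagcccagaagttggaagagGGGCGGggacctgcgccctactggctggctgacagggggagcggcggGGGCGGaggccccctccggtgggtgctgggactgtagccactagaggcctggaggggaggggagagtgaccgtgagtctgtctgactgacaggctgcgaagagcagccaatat
The Cxcl12 stretch held 5 matches and the Dll4 stretch 2. A match was found in 32.7% of all 32851 windows of 250 bases in the table, in 57.0% of those of tested genes, in 56.9% of those of genes higher in VEC and in 50.4% of those of genes higher in cTEC. Of the tested genes 9169 matched a window by symbol.

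Every Wnt pathway ligand or secreted inhibitor that could be tested was higher in cTEC, 7 of 7, although 28 of the 35 listed were too low to test in these libraries. With VEC replicate 2 left out, 1 member was higher in VEC. Wnt4 led, at 0, 0.131 and 0 CPM in VEC against 121, 96.6 and 62.5 in cTEC, a ratio of 2462-fold (95% counting interval 442 to 97286). Wnt6, Wnt7b and Wnt9a, at most 6.35 CPM in any cTEC library, and the Wnt antagonists Sfrp1, Sfrp4 and Dkk3 were the others, with Sfrp1 at 115, 56.5 and 58.4 CPM in cTEC and 0.207, 2.61 and 0.108 in VEC (adjusted p = 0.0112). A member tested only because it was present in cTEC had to differ in that direction, so the 7 of 7 carries no weight of its own. Sfrp4 no longer passed in 2 of the 6 fits that each left out 1 library (adjusted p up to 0.0545), Wnt7b without VEC replicate 2 (adjusted p = 0.0564) and Dkk3 without cTEC replicate 1 (adjusted p = 0.0556).

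Ligands and antagonists of the TGF-beta and BMP families were called more often for cTEC, 8 against 2 of 18 tested. Members with almost no VEC count, such as Fst and Tgfb3, were tested through cTEC and could differ only in that direction. The split of 8 to 2 is thus a description. Fst, which traps activins, stood at 0.103, 0 and 0 CPM in VEC and 133, 66.5 and 50.7 in cTEC, a ratio of 2216-fold (95% counting interval 397 to 87554). Twsg1, a BMP modulator, was higher in cTEC at 358, 351 and 250.4 against 38.5, 22.3 and 11.7 CPM (difference 3.72 ± 0.47, adjusted p = 0.0022), as was Tgfb3, at 25.1, 28.9 and 25.3 against 0.207, 0 and 0. Latent TGF-beta binding proteins divided: Ltbp3 was higher in cTEC (93.4, 67.4 and 66.7 against 14.6, 15.3 and 7.46 CPM, adjusted p = 0.00894) and Ltbp4 in VEC (536, 521 and 266 against 88.3, 95.9 and 20.2, adjusted p = 0.0173). Bmp6, an iron-regulating BMP known from endothelium, was the other member higher in VEC, at 4.55, 31.1 and 71.1 against 0.183, 2.19 and 0.174 CPM. Bmp6 no longer passed in 4 of the 6 fits that each left out 1 library (adjusted p up to 0.126).

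Growth factors for mesenchymal and epithelial cells followed, with 8 higher in cTEC and 2 in VEC of 20 tested. Mdk and Ptn, a pair of heparin-binding relatives, stood at 171, 187 and 219.5 (Mdk) and 74.9, 105 and 108 (Ptn) CPM in cTEC and at 0.517, 2.22 and 0.757 (Mdk) and 0.207, 0.653 and 0.108 (Ptn) in VEC. Their adjusted p-values were 0.000432 and 0.000556. Gas6, the ligand of the Axl and Mertk receptors, was present in both and 2.73 ± 0.38 higher in cTEC (779, 522 and 406 against 123, 58 and 76.5 CPM, adjusted p = 0.00334). The platelet-derived growth factors divided by chain: Pdgfa was higher in cTEC (82.8, 66 and 63.3 against 1.76, 3.79 and 6.92 CPM, adjusted p = 0.00543), while Pdgfb, which recruits pericytes to vessels, was higher in VEC (73.2, 158 and 103 against 0, 2.69 and 0, adjusted p = 0.0196), as was Pdgfd. Hgf and Nrg1 had no VEC count and stood at 13.5, 14.3 and 11.3 (Hgf) and 8.5, 9.15 and 12 (Nrg1) CPM in cTEC. Insulin-like growth factor binding proteins were also split, 3 of 6 higher in cTEC and 1 in VEC. Igfbp5 stood at 0.413, 0 and 0.324 CPM in VEC and 2316, 1476 and 616 in cTEC (difference 12.40 ± 0.93, adjusted p = 0.000281). Igfbp7, a constituent of vascular matrix, went the other way at 1299, 1343 and 751 against 79.9, 94.6 and 37.9 (difference 4.00 ± 0.43, adjusted p = 0.00115). Pdgfd no longer passed in 2 of the 6 fits that each left out 1 library (adjusted p up to 0.0612).

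**Figure D2:**
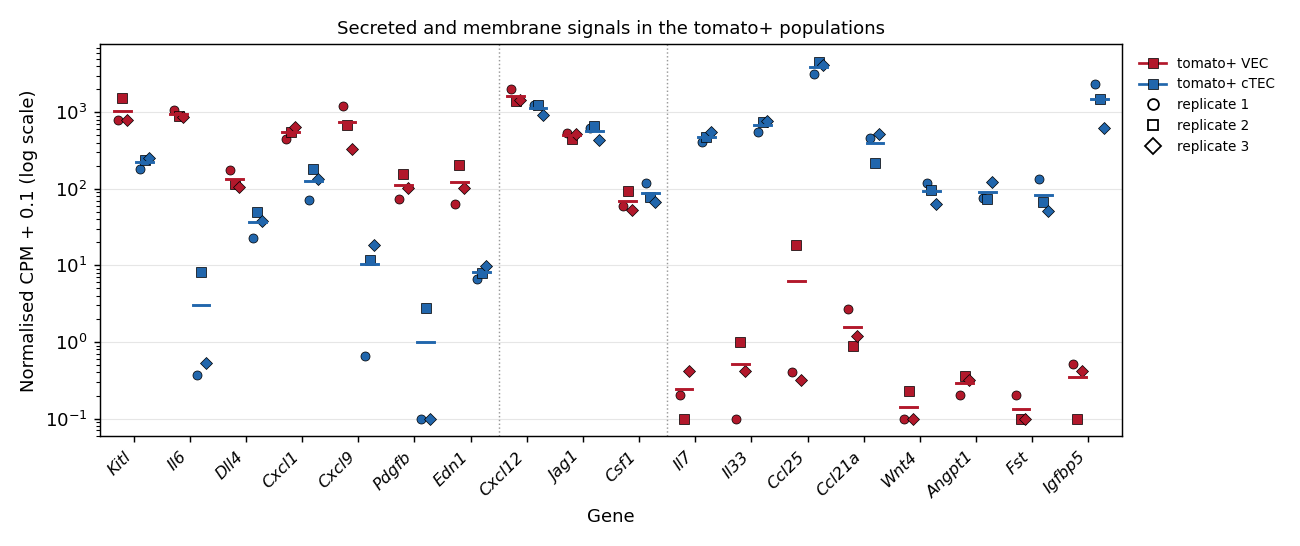
Normalised CPM plus 0.1 on a log axis (y) of 18 signal genes (x) in the 3 tomato+ VEC libraries (red) and the 3 tomato+ cTEC libraries (blue). Symbols give the replicate and bars the mean. Dotted lines separate genes higher in VEC (left), genes that did not pass the test (Cxcl12, Jag1 and Csf1) and genes higher in cTEC (right); Kitl lies between 182 and 1544 CPM in all 6 libraries.

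Of 16 VEGF, angiopoietin and vasoactive ligands tested, 4 were higher in VEC and 2 in cTEC, against 9.2% and 12.8% over all genes. The other 10 did not pass, Vegfa, Vegfb and Vegfc among them. The VEC count was 2 without VEC replicate 1, 2 or 3 or cTEC replicate 1. The cTEC count was 1 without VEC replicate 1 or cTEC replicate 1, 2 or 3. Angpt1, which stabilises vessels through the receptor Tek, stood at 0.103, 0.261 and 0.216 CPM in VEC and 76, 73.2 and 121 in cTEC (difference 8.80 ± 0.63, adjusted p = 0.000264). Its antagonist Angpt2 was higher in VEC (24.2, 36.3 and 38.9 against 0.0914, 3.88 and 1.57 CPM, adjusted p = 0.0458). VEC also held the vasoconstrictor peptide precursor Edn1 (62.9, 205 and 102 against 6.49, 7.76 and 9.75 CPM, adjusted p = 0.00299) and Esm1, an endothelial proteoglycan (42.9, 72.9 and 101 CPM, a ratio of 776-fold (95% counting interval 265 to 3767)). Of 5 ephrins tested, 3 were higher in VEC, though 2 others were higher in cTEC once VEC replicate 1 was left out. The 3 were led by Efnb2, an arterial ephrin, at 615, 399 and 507 against 129.8, 165 and 107 CPM (adjusted p = 0.00333). Of 18 semaphorins, slits and netrins tested, 4 were higher in VEC, among them Sema6a (161, 162 and 185 against 2.65, 11.2 and 2.87 CPM, adjusted p = 0.00275). The cTEC count was 3 without cTEC replicate 1 and 4 without VEC replicate 1 or cTEC replicate 2 or 3. The 7 higher in cTEC included Sema3c (35.5, 61.6 and 27.1 CPM against 0.103, 0 and 0.216) and Slit2 (14.5, 3.08 and 10.4 against 0.103, 0.131 and 0.216). Angpt2 no longer passed in 5 of the 6 fits that each left out 1 library (adjusted p up to 0.153).

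Ligands that restrain or kill leukocytes were spread over both. Tnfsf10, which encodes the death ligand TRAIL, was higher in VEC at 267, 338 and 215 against 10.4, 21.9 and 21.1 CPM (difference 3.94 ± 0.39, adjusted p = 0.000778). Cd274, which encodes PD-L1, was higher in cTEC at 501, 312 and 772 against 152, 116 and 108 CPM (difference 2.08 ± 0.36, adjusted p = 0.00807), and Pdcd1lg2, which encodes PD-L2, had counts only in cTEC, at 3.11, 3.88 and 10.1 CPM. Cd200 and Cd47, membrane ligands that inhibit myeloid cells, were high in both and higher in VEC, at 1193, 1094 and 1225 against 220.2, 333 and 346 CPM and 449.9, 467 and 363 against 144, 101 and 117 CPM (adjusted p = 0.00185 and 0.00236). Btnl9, a butyrophilin-like protein, was a VEC transcript at 66.5, 162 and 81.3 CPM against 0, 0.398 and 0.174 (adjusted p = 0.0012). Of the nectin family, Pvr was higher in VEC (72.8, 202 and 52.3 against 6.58, 4.38 and 5.74 CPM) and Pvrl1 in cTEC (127, 96.8 and 104 against 0.103, 0 and 0).

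The MHC class II genes called were higher in cTEC and most of the class I genes called were higher in VEC. Of 12 genes of class II presentation, all tested, 9 were higher in cTEC and the other 3, Ciita among them, did not pass. Cd74, the invariant chain, stood at 301, 207 and 427 CPM in VEC and 26901, 25862 and 29226 in cTEC (difference 6.45 ± 0.35, adjusted p = 8.42e-05), and H2-Aa at 133, 57.7 and 138 against 6773, 5977 and 7125 (difference 5.92 ± 0.41). Ctsl, the cortical protease that trims class II peptides and the invariant chain, stood at 959.7, 935 and 1169 against 6557, 6595 and 8613 CPM (difference 2.83 ± 0.22, adjusted p = 0.000307). Ciita, the class II transactivator, stood at 0.207, 0 and 3.14 against 33.5, 13.6 and 35.9 CPM (adjusted p = 0.0831). Of 16 class I genes, 6 were higher in VEC and 2 in cTEC, against 9.2% and 12.8% over all genes. The cTEC share was thus near that over all genes. The VEC count was 4 without cTEC replicate 1, 2 or 3. The cTEC count was 1 without VEC replicate 1 or 3 or cTEC replicate 2 or 3. B2m, the light chain of class I, was higher in VEC at 13345, 14322 and 15389 against 7195, 7622 and 6828 CPM (difference 0.99 ± 0.17, adjusted p = 0.00727), and H2-D1 followed at 3709, 3496 and 3612 against 1873, 1774 and 1819 (difference 0.98 ± 0.17). H2-K1 did not pass, at 2991, 3017 and 2095 against 2102, 1700.1 and 1543 CPM. Class I heavy chains are near-identical in sequence, so reads counted for H2-D1, H2-K1 and H2-Q7 may be split between them. The 2 class I genes higher in cTEC were proteasome subunits: Psmb11, found in the cortical thymoproteasome, at 516, 716 and 657 CPM against 0.31, 0.261 and 0, and the interferon-induced Psmb9, at 303, 404 and 449 against 172, 244 and 176. The other immunoproteasome subunit called, Psmb8, was higher in VEC (538, 401 and 533 against 145, 167 and 261 CPM, adjusted p = 0.0141). Psmb9 no longer passed in 4 of the 6 fits that each left out 1 library (adjusted p up to 0.112, and 0.0833 without cTEC replicate 2) and Psmb8 without cTEC replicate 1 (adjusted p = 0.055).

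Receptor tyrosine kinases were divided, with 6 of 25 tested higher in VEC and 7 higher in cTEC. The VEC count was 3 without cTEC replicate 1. Fgfr2, the epithelial receptor for fibroblast growth factors of stroma, stood at 0.207, 0.131 and 0.108 CPM in VEC and 320.2, 232 and 236 in cTEC (difference 10.66 ± 0.43, adjusted p = 3.36e-05). Egfr stood at 0.103, 0.261 and 0.216 against 223, 138 and 154 CPM (difference 9.73 ± 0.51, adjusted p = 8.27e-05), and Ddr1, a collagen receptor, at 0, 0 and 0.216 against 180.0, 108 and 102. The VEC side held the VEGF receptors Flt4 (52.9, 48.2 and 62 against 0, 0.199 and 0.261 CPM, adjusted p = 0.00193), Flt1 (470.4, 691 and 465 against 0.732, 14.2 and 1.91, adjusted p = 0.00727) and Kdr. It also held Ret, a receptor for glial-derived factors, at 9.51, 27.4 and 25.9 against 0.0914, 0.199 and 0.261 CPM (adjusted p = 0.00519). The endothelial kinases Tie1 and Tek stood at 327, 406 and 281 (Tie1) and 872, 802 and 466 (Tek) CPM in VEC and at 0, 9.35 and 0 (Tie1) and 0.457, 34.8 and 0.87 (Tek) in cTEC, where replicate 2 carried nearly all of the signal. Their adjusted p-values were 0.0289 and 0.0351, and 0.000168 and 0.000168 without that replicate. Tie1 no longer passed in 5 of the 6 fits that each left out 1 library (adjusted p up to 0.0568), Tek in 5 of these fits (adjusted p up to 0.0728) and Kdr in 2 of these fits (adjusted p up to 0.0791). Fgfr3 stood at 61.4, 51.5 and 12.9 against 0.274, 6.27 and 0.174 CPM and passed once cTEC replicate 2 was left out (adjusted p = 0.0917, then 0.0116).

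Notch receptors were divided between the populations. Notch2 stood at 9.09, 14.9 and 13.4 CPM in VEC and 261, 202 and 186 in cTEC (difference 4.12 ± 0.33, adjusted p = 0.000354), and Notch1 at 194, 142 and 226 against 67.4, 59.7 and 38, 1.77 ± 0.33 higher in VEC (adjusted p = 0.00959). The Notch targets Hes1 and Nrarp were higher in VEC (110.3, 122 and 64.2 against 30.1, 30.1 and 21.7 CPM and 46.3, 25.7 and 32.9 against 4.11, 4.77 and 0.783), and Hey2 was higher in cTEC (26.1, 37.3 and 19.8 against 1.14, 0 and 0.216). Nrarp no longer passed in 4 of the 6 fits that each left out 1 library (adjusted p up to 0.0749, and 0.0606 without cTEC replicate 2), Hey2 in 3 of these fits (adjusted p up to 0.0664, without cTEC replicate 2) and Hes1 without cTEC replicate 3 (adjusted p = 0.0572). Notch4, an endothelial Notch receptor, stood at 105, 34.2 and 30.5 against 0.0914, 3.78 and 0 CPM and passed once cTEC replicate 2 was left out (adjusted p = 0.0622, then 0.00605).

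Receptors for Wnts, BMPs and TGF-beta were divided by gene. Lgr4, a receptor for R-spondins, stood at 60, 59 and 32 CPM in VEC and 739.7, 589 and 591 in cTEC (difference 3.67 ± 0.32, adjusted p = 0.000465), and 5 of 14 Frizzleds and co-receptors were higher in cTEC against 1 in VEC, Tspan12 (545, 406 and 744 against 53, 185 and 138 CPM). Tspan12 no longer passed without cTEC replicate 3 (adjusted p = 0.0539). Bmpr1a, the type I receptor for Bmp2 and Bmp4, stood at 2.48, 2.61 and 0.541 CPM in VEC and 289.8, 159 and 137 in cTEC, 6.70 ± 0.70 higher in cTEC (adjusted p = 0.000956). The co-receptor Eng stood at 429, 287 and 286 CPM in VEC and 1.37, 14.5 and 0.348 in cTEC (adjusted p = 0.0142, and 0.000495 without cTEC replicate 2). Tgfbr2 was present in both and 1.41 ± 0.32 higher in VEC (385, 213 and 343 against 148, 120.3 and 86.6 CPM, adjusted p = 0.0181). Tgfbr2 no longer passed in 3 of the 6 fits that each left out 1 library (adjusted p up to 0.064, and 0.0521 without cTEC replicate 2).

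Cytokine and interferon receptors were called more often for VEC, 8 against 2 of 28 tested, and the 2 higher in cTEC no longer passed without cTEC replicate 1 or 3. Il2rg, the common gamma chain shared by the receptors for Il7, Il15 and others, stood at 1729, 2133 and 2816 CPM in VEC and 36.5, 86.7 and 28.8 in cTEC (difference 5.46 ± 0.52, adjusted p = 0.000656). Ifngr1, the ligand-binding chain of the interferon gamma receptor, stood at 1366, 1057 and 1294 against 94.6, 140.2 and 92.7 CPM (difference 3.50 ± 0.27, adjusted p = 0.00029). Il6st, the signal transducer of the Il6 family, was 2.86 ± 0.38 higher in VEC (679.8, 853 and 347 against 69.8, 103 and 86 CPM, adjusted p = 0.00246), so VEC held more of both Il6 and this chain. Lifr, its partner for leukaemia inhibitory factor, did not pass at 430.1, 502 and 380.2 against 573, 628 and 629.6 CPM. Of the TNF receptors, Tnfrsf10b, the TRAIL receptor, was higher in VEC (223, 277 and 256 against 16.6, 21.8 and 27.9 CPM, adjusted p = 0.000434), as was Fas (396, 350.2 and 163 against 42.4, 59.6 and 88.3, adjusted p = 0.0104). Tnfrsf19 and Edar, receptors of epithelial appendages, were higher in cTEC at 39.8, 70.6 and 46.8 (Tnfrsf19) and 25, 9.75 and 20.3 (Edar) CPM against 0.207, 0.392 and 0.216 (Tnfrsf19) and no count (Edar) in VEC.

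Atypical chemokine receptors, which take up chemokines without classical signalling, marked opposite sides. Ccrl1, which binds Ccl25 and Ccl21a, stood at 0, 0 and 0.108 CPM in VEC and 695, 776 and 785 in cTEC, a ratio of 19997-fold (95% counting interval 3589 to 789866) and among the 8 largest changes. Darc, the Duffy receptor of venules, stood at 61.2, 317 and 132 CPM in VEC against 0.0914, 0.199 and 0.174 (difference 9.99 ± 0.90, adjusted p = 0.000522). Ccr9 and Ccr2, receptors of leukocytes, were higher in cTEC but low, at 10.1, 10.6 and 7.22 (Ccr9) and 5.94, 7.16 and 4 (Ccr2) CPM. The 11 thymocyte markers moved with them, at 80.4 to 140 CPM in cTEC and 4.83 to 22.0 in VEC, and their part in these results, and in those for the leukocyte genes Tnfrsf18 and Itgb2, was not tested.

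Of 33 G protein-coupled receptors tested, 14 were higher in VEC and 9 in cTEC. The cTEC count was 5 without VEC replicate 2 or 3. S1pr1, which reads sphingosine 1-phosphate, stood at 902, 1028 and 673 CPM in VEC and 1.92, 37.8 and 4.35 in cTEC (adjusted p = 0.0113, and 0.000238 without cTEC replicate 2), while its relative S1pr3 was higher in cTEC at 64, 84.1 and 94.2 against 0.517, 0 and 0.973 CPM (adjusted p = 0.00335). Lysophosphatidic acid receptors split in the same manner. Lpar6 was higher in VEC (2007, 1594 and 1208 against 173, 234 and 298 CPM, adjusted p = 0.00118) and Lpar1 in cTEC (264, 208 and 312 against 2.27, 2.22 and 20, adjusted p = 0.0104). Of the receptors for vasoactive peptides, 3 are given here as higher in VEC and the endothelin receptor Ednra was higher in cTEC: Calcrl for adrenomedullin (542, 466 and 536 against 27.8, 43.9 and 56.1 CPM, adjusted p = 0.000483), Aplnr for apelin (608, 597 and 372 against 7.59, 14.4 and 2.44, adjusted p = 0.00143) and Ednrb for endothelin (229.7, 358 and 575 against 31.3, 55.9 and 43.9, adjusted p = 0.00246). Scavenger receptors split 7 to 5 of 18, with a VEC count of 4 without cTEC replicate 1. Scarb1, the receptor for high-density lipoprotein, stood at 1672, 1177 and 784 CPM in VEC and 1.37, 8.06 and 2.09 in cTEC (difference 8.30 ± 0.84, adjusted p = 0.000844). Lrp1, Vldlr and Sorl1, endocytic lipoprotein receptors, were higher in cTEC, with Vldlr at 135, 98.9 and 32.5 CPM against 0.207, 0.392 and 1.41. Ly75, a cortical endocytic lectin, was also higher in cTEC at 118, 134 and 168 against 0, 0.653 and 0 CPM. Cd93 stood at 2994, 3181 and 5169.6 against 1.65, 149 and 1.57 CPM and missed the threshold with all libraries (adjusted p = 0.0501, and 7.41e-05 without cTEC replicate 2).

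Ligands and receptors were read as 144 pairs compiled from textbook knowledge, 92 of them with both genes tested. In 6 pairs the ligand was higher in cTEC and the receptor in VEC, and in 3 pairs the reverse held. Both genes were higher in VEC in 9 pairs and both in cTEC in 7. The count of 6 was 2 without VEC replicate 1 or cTEC replicate 3 and 3 without cTEC replicate 1. The count of 3 was 1 without cTEC replicate 1, and no such pair was called without cTEC replicate 3. A pair describes transcripts of 2 populations and measures no contact between them. The 6 with a cortical ligand were Ccl2 with Darc, Angpt1 with Tek, Bmp7 with Acvr2a, Tgfb3 with Tgfbr2, Sema3c with Nrp2 and Slit2 with Robo4. Ccl2, which draws monocytes, stood at 12.2, 0.261 and 8.87 CPM in VEC and 138, 74.2 and 104 in cTEC (adjusted p = 0.0382). Bmp7, a BMP ligand, stood at 0.103, 0 and 0 against 12.2, 17.1 and 10.7 CPM, and Acvr2a, a type II receptor for it, at 176, 161 and 86.3 against 60.1, 48.6 and 57.5 (adjusted p = 0.00715 and 0.0271). No library of the lower group reached the other group in either gene of this pair. Nrp2 and Robo4 stood at 125, 111 and 113 (Nrp2) and 337, 257 and 295 (Robo4) CPM in VEC against 1.83, 1.99 and 0.522 (Nrp2) and 0.183, 1.79 and 0 (Robo4) in cTEC (adjusted p = 0.000702 and 0.00231). The 3 with an endothelial ligand were Edn1 with Ednra, Efnb1 with Ephb3 and Enpp2 with Lpar1. Ednra, the endothelin A receptor, stood at 0.103, 0 and 0 CPM in VEC and 2.74, 2.19 and 3.74 in cTEC (adjusted p = 0.0142). Efnb1, an ephrin, stood at 67.5, 49.4 and 39.2 against 11.6, 11.8 and 9.75 CPM and its receptor Ephb3 at 0, 0.261 and 0 against 22.6, 7.86 and 15.1 (adjusted p = 0.0161 and 0.0144). Enpp2 encodes autotaxin, which makes the lysophosphatidic acid that Lpar1 reads, and stood at 2280.0, 2111 and 3029.6 CPM in VEC and 23.9, 306 and 67.3 in cTEC (adjusted p = 0.0148). Pairs within VEC included Dll4 with Notch1, Efnb2 with Ephb4 and Tnfsf10 with Tnfrsf10b, and pairs within cTEC included Ccl25 with Ccrl1, Gas6 with Axl and Eda with Edar. Axl no longer passed in 5 of the 6 fits that each left out 1 library (adjusted p up to 0.162, and 0.113 without cTEC replicate 2), Ccl2 in 5 of these fits (adjusted p up to 0.11, and 0.0581 without cTEC replicate 2), Tek in 5 of these fits (adjusted p up to 0.0728), Acvr2a in 5 of these fits (adjusted p up to 0.0971, without cTEC replicate 2), Tgfbr2 in 3 of these fits (adjusted p up to 0.064, and 0.0521 without cTEC replicate 2), Ednra in 4 of these fits (adjusted p up to 0.0646), Efnb1 in 3 of these fits (adjusted p up to 0.0673, and 0.0607 without cTEC replicate 2), Ephb3 in 2 of these fits (adjusted p up to 0.0533), Enpp2 without cTEC replicate 3 (adjusted p = 0.056), Dll4 without cTEC replicate 3 (adjusted p = 0.0544) and Ephb4 without cTEC replicate 1 (adjusted p = 0.0519).

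**Figure D3:**
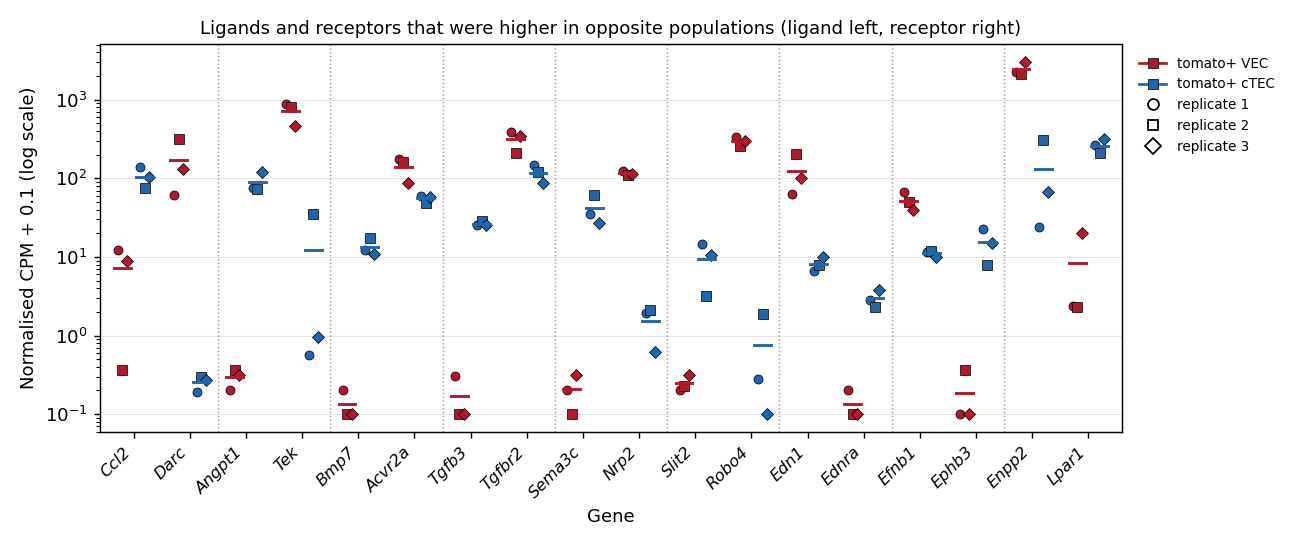
Normalised CPM plus 0.1 on a log axis (y) of the ligand and the receptor of the 9 pairs whose members were higher in opposite populations (x, ligand first), in tomato+ VEC (red) and tomato+ cTEC (blue). Symbols give the replicate and bars the mean. The first 6 pairs have the cTEC-higher ligand, as Angpt1 with Tek, and the last 3 the VEC-higher ligand; Tek in cTEC reaches 34.8 CPM in replicate 2 only.

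In the leukocyte-homing list most adhesion genes called were higher in VEC, and in the junction list most were higher in cTEC. Both lists had members called the other way. The homing list also holds the junctional molecules F11r, Jam2 and Jam3, all higher in VEC. Of 20 homing molecules tested, 10 were higher in VEC and 2 in cTEC; without cTEC replicate 2, the VEC count was 15, with Pecam1, Emcn, Esam, Podxl and Vwf added. Selp and Sele, the endothelial selectins, stood at 26.8, 45.2 and 157 (Selp) and 13.6, 40.9 and 49.8 (Sele) CPM in VEC and at 0, 0.199 and 0.87 (Selp) and 0.0914, 0.199 and 0.174 (Sele) in cTEC (adjusted p = 0.00894 and 0.0023). Cd34, which carries selectin ligands, stood at 2273, 2634 and 3373 against 48.4, 80.7 and 8.18 CPM (difference 5.92 ± 0.83, adjusted p = 0.00329). F11r, a junctional adhesion molecule, was 2.53 ± 0.30 higher in VEC (852, 641 and 851 against 90.3, 163 and 152 CPM). Icam1 did not pass, at 506, 389.9 and 393 CPM in VEC and 433, 417 and 402 in cTEC. Vcam1 did not pass either. The 2 higher in cTEC were Alcam, a ligand of Cd6 on T cells, at 485, 392 and 436 CPM against 0.103, 0 and 0, and the hyaluronan receptor Cd44, at 196, 209.7 and 265 against 13.8, 7.97 and 43.6 (adjusted p = 0.0104).

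Junction proteins were called more often for cTEC, 20 against 4 in VEC of 34 tested. Without cTEC replicate 2 the counts were 17 and 7, with the endothelial Cldn5, Gja4 and Gja5 added for VEC. Members with almost no VEC count, such as Dsc3, Dsp and Cdh1, were tested through cTEC and could differ only in that direction. Epcam, among the 20, was also part of the sort gates. The split of 20 to 4 is thus a description. Dsc3 and Dsp, a desmosomal cadherin and the plaque protein desmoplakin, stood at 444, 453 and 519.5 (Dsc3) and 775, 650.5 and 659.6 (Dsp) CPM in cTEC and at 0.103, 0 and 0 (Dsc3) and 0, 0.522 and 0.216 (Dsp) in VEC. Cdh1, the epithelial cadherin, was higher in cTEC at 188, 199.7 and 191 against 0.103, 0 and 0 CPM, a ratio of 5129-fold (95% counting interval 920.2 to 202623). Cdh5, its endothelial counterpart, stood at 1408, 1608 and 921 CPM in VEC and 1.1, 38.2 and 0.348 in cTEC (adjusted p = 0.027, and 0.000168 without cTEC replicate 2). The gap junction protein Gja1 and the tight junction scaffold Tjp1 were present in both and higher in VEC, at 1361, 1415 and 1862 against 236, 222 and 278 CPM and 502, 475 and 274 against 31.4, 31.5 and 36.2 (adjusted p = 0.000434 and 0.000432). Cldn5, an endothelial claudin, stood at 263, 321 and 231 against 0.0914, 22.3 and 0 CPM and passed once cTEC replicate 2 was left out (adjusted p = 0.0873, then 0.000168). Of 16 integrins, Itgav was higher in cTEC (258, 233 and 186 against 19.4, 25.2 and 20.5 CPM, difference 3.38 ± 0.28, adjusted p = 0.000394) with Itga8. Itga1, a receptor for collagen IV, and Itgb1 were higher in VEC, Itga1 at 266, 326 and 379 against 96.7, 79.6 and 89.8 CPM (difference 1.87 ± 0.23, adjusted p = 0.00211). Cdh5 no longer passed in 3 of the 6 fits that each left out 1 library (adjusted p up to 0.0564) and Itgb1 without cTEC replicate 3 (adjusted p = 0.0507).

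Collagen IV chains divided by gene pair. Collagen IV is a network-forming trimer whose chains are encoded by neighbouring head-to-head genes. Col4a1 stood at 1939, 1752 and 2010.2 CPM in VEC and 231, 210.5 and 184 in cTEC (difference 3.19 ± 0.20, adjusted p = 0.000164), and Col4a2 at 1033, 1027 and 955 against 96.5, 109 and 97.7 (difference 3.31 ± 0.20, adjusted p = 0.000123). Col4a5 had no count in VEC and 70.5, 46 and 72.2 CPM in cTEC, at least 563-fold higher, and Col4a6 stood at 0, 0 and 0.108 against 22.8, 20.5 and 12.2 CPM, a ratio of 487-fold (95% counting interval 87.1 to 19269). Both genes of a pair thus had the same direction here, and the pairs had opposite directions, with no overlap between groups in any of the 4 genes. Of the remaining pair, Col4a4 stood between 0 and 1.19 CPM in VEC and between 0.497 and 1.65 in cTEC and did not pass (adjusted p = 0.6), and Col4a3, at 0.31, 0.653 and 0.432 against 13.3, 2.29 and 0.435, was too low to be tested. In RefSeq on GRCm38.p6 the starts of Col4a1 and Col4a2 lie 21 bases apart on chromosome 8, so reads of these genes near the starts could not be assigned without strand, and those of Col4a6 and Col4a5 lie 1343 bases apart on chromosome X.

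The upstream stretches of Col4a6 and Col4a5 are shown because they form the flanks of the interval between a pair with the same direction. They lie at chrX:141474077-141474326 on the - strand and chrX:141475169-141475384 on the + strand, with capitals for a GC box as above.
Col4a6: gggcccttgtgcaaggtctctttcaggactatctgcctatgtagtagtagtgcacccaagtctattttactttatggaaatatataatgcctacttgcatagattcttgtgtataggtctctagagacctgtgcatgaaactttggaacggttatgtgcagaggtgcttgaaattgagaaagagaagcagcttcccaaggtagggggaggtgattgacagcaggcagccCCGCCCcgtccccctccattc
Col4a5: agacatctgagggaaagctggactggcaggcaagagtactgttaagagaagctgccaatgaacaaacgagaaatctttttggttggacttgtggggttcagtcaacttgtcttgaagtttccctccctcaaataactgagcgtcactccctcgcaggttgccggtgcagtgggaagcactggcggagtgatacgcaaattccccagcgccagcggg
The Col4a6 stretch held 1 match and the Col4a5 stretch none.

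Of all 21 collagens tested, type IV included, 13 were higher in cTEC and 3 in VEC. Col4a5 and Col4a6 were among the 13, and Col4a1 and Col4a2 among the 3. Members with almost no VEC count, such as Col12a1, were tested through cTEC and could differ only in that direction. Col12a1, a fibril-associated collagen, stood at 0.207, 0.392 and 0.216 CPM in VEC and 166, 183 and 134 in cTEC (adjusted p = 6.60e-05), and Col6a1 at 0.207, 1.31 and 0.757 against 175, 107 and 126 (adjusted p = 0.000607). The anchoring collagens of epithelium, Col7a1 and Col17a1, were among the 13, with Col7a1 at 13.4, 14.8 and 4.09 CPM against 0.207, 0 and 0.108. Col15a1, a vascular collagen, stood at 169, 267 and 226 CPM in VEC against 0, 2.98 and 0.174 (difference 7.72 ± 1.32, adjusted p = 0.00743). Fibroblast collagens were low in both: Col3a1 stood at 71.9, 48.1 and 14.4 CPM in cTEC and 1.03, 2.09 and 1.3 in VEC (adjusted p = 0.00815), and Col1a2 did not pass at 36.8, 18.7 and 1.31 in cTEC and 0.413, 1.31 and 0.757 in VEC. The cTEC count was 7 without cTEC replicate 1 and 8 without cTEC replicate 2 or 3. Without cTEC replicate 2 the VEC count was 4. Col17a1 no longer passed in any of the 6 fits that each left out 1 library (adjusted p up to 0.214, without cTEC replicate 2).

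Laminins divided 7 to 7 of 17 basement membrane genes, again by chain. Lamb3 and Lama3, chains of the epithelial laminin that anchors to hemidesmosomes, stood at 85.5, 85.3 and 60.7 (Lamb3) and 242, 204 and 229 (Lama3) CPM in cTEC and 0.62, 0.131 and 0.324 (Lamb3) and 53.7, 73.5 and 64.7 (Lama3) in VEC (adjusted p = 0.000604 and 0.00266). Lama4, the vascular laminin chain, stood at 181, 246 and 219 CPM in VEC against 37.4, 47.3 and 57.2 (difference 2.19 ± 0.28, adjusted p = 0.00223). Nid1 and Hspg2, which link laminin to collagen IV, were higher in VEC by 3.71 ± 0.32 and 3.18 ± 0.28 (adjusted p = 0.000439 and 0.000446). Fras1 and Frem2, of the complex that holds epithelium to its membrane, were higher in cTEC, Fras1 at 75.3, 80.6 and 42 CPM against 0.31, 0.392 and 0.216.

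Matricellular proteins split 9 to 9 of 29 tested. Tnc, an anti-adhesive glycoprotein, stood at 0.31, 0.261 and 0.108 CPM in VEC and 998, 675 and 973 in cTEC (difference 11.85 ± 0.45, adjusted p = 3.36e-05). Sparc and Sparcl1, which modulate collagen assembly, were higher in VEC at 3718, 4042 and 7303 against 635, 857 and 843 CPM and 3675, 3436 and 3579 against 17.4, 133 and 11.1 (adjusted p = 0.00171 and 0.00764). Nov, a member of the CCN family, stood at 124, 119 and 79.5 CPM in VEC against 0.0914, 0.0995 and 0.087, a ratio of 1162-fold (95% counting interval 397 to 5637). Fn1 did not pass, at 189, 219.9 and 257 against 160.3, 200.1 and 188 CPM. Among 20 proteoglycans, 11 were higher in cTEC and 4 in VEC. The VEC count was 2 without cTEC replicate 1, 2 or 3; the cTEC count was 7 without cTEC replicate 1. Dcn, decorin, stood at 5.37, 14.5 and 5.62 against 2051, 2006 and 1567 CPM (difference 7.79 ± 0.53, adjusted p = 0.000204), and the heparan sulphate carrier Sdc4 at 17.8, 15.8 and 50.6 against 1734, 1703 and 1914 (difference 5.99 ± 0.55, adjusted p = 0.000556). Dcn, Col3a1 and Acta2 belong to the mesenchymal markers, 10 of which were above 1 CPM on average in cTEC and 6 in VEC, and the part of such cells in these matrix results was not tested.

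Of 36 matrix proteases and inhibitors, 10 were higher in VEC and 7 in cTEC. The VEC count was 5 without cTEC replicate 1. Adamts1, which cleaves versican, stood at 966, 1409 and 668 CPM in VEC against 76.4, 89.4 and 62.5 (difference 3.74 ± 0.34, adjusted p = 0.000569), while Mmp2, a gelatinase, was higher in cTEC at 130.4, 125 and 67.2 against 8.58, 7.31 and 11.6 (difference 3.55 ± 0.44, adjusted p = 0.00207). Among 15 genes of coagulation control, 6 were higher in VEC and 3 in cTEC, with 3 in VEC without VEC replicate 3 or cTEC replicate 1. F3, tissue factor, stood at 0, 0 and 0.324 CPM in VEC and 192, 111 and 216 in cTEC, a ratio of 1555-fold (95% counting interval 532 to 7544). Tfpi, which inhibits tissue factor, and Thbd, which turns thrombin to anticoagulant use, were higher in VEC at 144, 241 and 134 against 11.2, 12.7 and 16.2 CPM and 1234, 1237 and 696 against 216, 176 and 159.8 (adjusted p = 0.000804 and 0.00155).

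**Figure D4:**
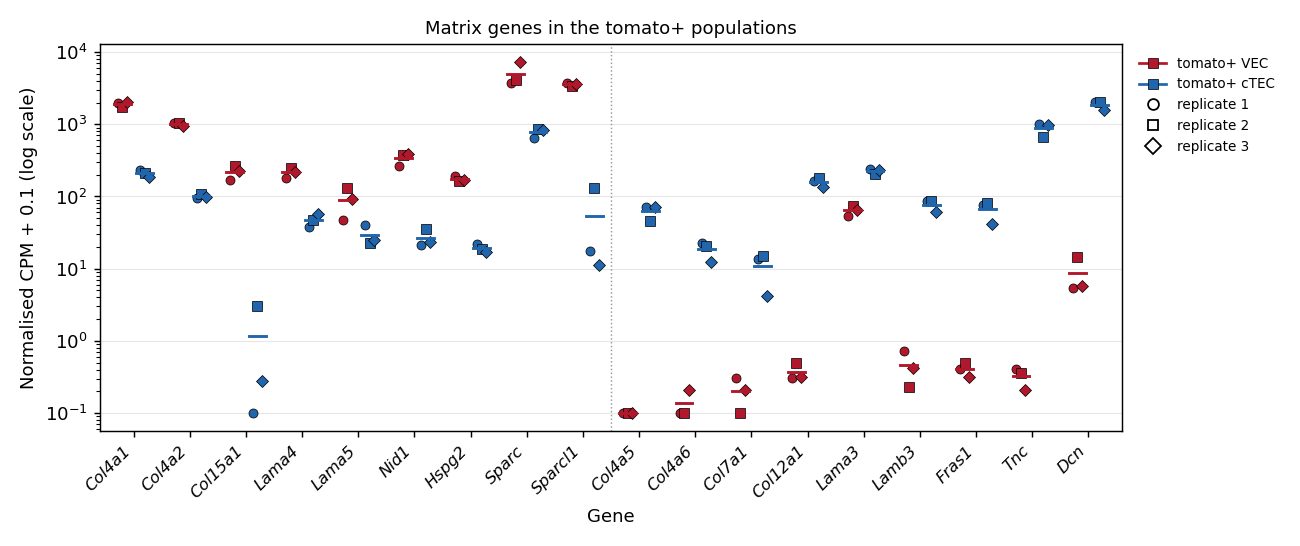
Normalised CPM plus 0.1 on a log axis (y) of 18 matrix genes (x) in the 3 tomato+ VEC libraries (red) and the 3 tomato+ cTEC libraries (blue), with symbols for the replicate and bars for the mean. The dotted line separates genes higher in VEC from genes higher in cTEC; Col4a1 and Col4a2 lie to its left and Col4a5 and Col4a6 to its right.

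Of 22 genes of glycolysis and lactate tested, 1 was higher in VEC and 2 in cTEC, and of 24 of the tricarboxylic acid cycle, 3 were higher in cTEC, against 9.2% and 12.8% over all genes. With a library left out the glycolytic counts were at most 1 in VEC and 1 to 4 in cTEC, and the tricarboxylic acid count was 1 without cTEC replicate 3. Aldoa and Pkm stood at 592, 808 and 881 (Aldoa) and 146, 151 and 182 (Pkm) CPM in VEC and 729, 698 and 662 (Aldoa) and 130.3, 149 and 152 (Pkm) in cTEC, and Cs, citrate synthase, at 74.6, 112 and 149 against 125, 175 and 138. None of these passed (adjusted p = 0.759, 0.72 and 0.481), and their groups overlapped. Among those that did, Ldhb, the lactate-oxidising isoform, stood at 0, 8.36 and 8.97 CPM in VEC and 273, 296 and 326 in cTEC (adjusted p = 0.0154), and Mdh1, cytosolic malate dehydrogenase, was 2.02 ± 0.23 higher in cTEC (1058, 1008 and 1236 against 235, 244 and 339 CPM, adjusted p = 0.00145).

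Fatty acid genes were called 11 times for VEC and 5 times for cTEC among 33 tested. The VEC count was 7 without VEC replicate 1 or cTEC replicate 1. Cd36, the fatty acid translocase, stood in VEC at 17301, 16028 and 12634 CPM, the highest mean CPM of any gene in VEC, against 28.8, 293 and 1.91 in cTEC (difference 7.15 ± 1.67, adjusted p = 0.0206, and 0.00366 without cTEC replicate 2). Fabp4, a fatty acid carrier of capillaries, stood at 15046, 16009 and 12160.5 against 33.8, 425 and 54.3 CPM (adjusted p = 0.00727, and 9.21e-05 without replicate 2). Its epithelial relative Fabp5 was higher in cTEC at 596, 928 and 1289 against 241, 277 and 307 (difference 1.77 ± 0.31, adjusted p = 0.00821). Pparg, the nuclear receptor above Cd36 and Fabp4, stood at 305, 157 and 251 CPM in VEC and 0.0914, 1.59 and 0.087 in cTEC (difference 8.66 ± 1.07, adjusted p = 0.00196), and Gpihbp1, which holds lipoprotein lipase on the capillary wall, at 2369, 2057 and 3214 against 0.732, 24.1 and 1.04 (adjusted p = 0.00959). Plin2, of the lipid droplet coat, was 2.14 ± 0.23 higher in VEC (242, 229.6 and 207 against 50.4, 49.8 and 53.3 CPM). Slc27a1 and Acsl3, which activate imported fatty acids, were higher in cTEC at 67.9, 27.4 and 48.7 (Slc27a1) and 141, 117 and 82.8 (Acsl3) CPM against 0.207, 0.261 and 0 (Slc27a1) and 0, 1.57 and 0.324 (Acsl3). Of 28 genes of cholesterol and fatty acid synthesis tested, 3 were higher in VEC and 4 in cTEC. These shares were near the 9.2% and 12.8% over all genes, and the cTEC count was 7 without VEC replicate 3. Fasn, fatty acid synthase, was higher in cTEC (79, 92.4 and 74.5 against 1.96, 8.1 and 0.649 CPM, adjusted p = 0.0131) with Sqle (139.9, 45.5 and 111 against 2.58, 3.79 and 9.84), while Elovl5, a fatty acid elongase, was higher in VEC (716, 482 and 445 against 96.7, 99.5 and 70.4, adjusted p = 0.00114). Elovl1 and Acly were the others higher in VEC. Acly no longer passed in 4 of the 6 fits that each left out 1 library (adjusted p up to 0.101). Cd36 no longer passed without cTEC replicate 1 (adjusted p = 0.0627).

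The window upstream of Cd36 is shown because Cd36 had the highest mean CPM of all genes in VEC. It lies at chr5:17835897-17836146 on the - strand of GRCm38.p6, with capitals for a GC box.
Cd36: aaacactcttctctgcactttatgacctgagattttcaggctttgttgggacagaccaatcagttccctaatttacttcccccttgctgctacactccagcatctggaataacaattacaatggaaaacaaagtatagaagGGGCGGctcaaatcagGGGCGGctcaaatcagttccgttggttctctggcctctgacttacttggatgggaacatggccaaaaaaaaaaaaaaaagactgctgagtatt
It held 2 matches.

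Of 22 genes of nitric oxide, prostanoid and eicosanoid synthesis tested, 2 were higher in VEC and 5 in cTEC. The other 15 did not pass, and the shares over all genes were 9.2% and 12.8%. The VEC count was 4 without VEC replicate 1 and 1 without VEC replicate 2 or cTEC replicate 1. Hpgd, which inactivates prostaglandins, stood at 0, 0 and 0.216 CPM in VEC and 605, 503 and 743 in cTEC, a ratio of 8274-fold (95% counting interval 2290.1 to 68323). Ptges, a prostaglandin E synthase, was also higher in cTEC (40.1, 35.3 and 19.8 against 0, 0.392 and 0.108 CPM, adjusted p = 0.00717). Nos3, the endothelial nitric oxide synthase, stood at 33.7, 64.1 and 54.7 against 0, 2.69 and 0.087 CPM (adjusted p = 0.0394, and 0.00386 without cTEC replicate 2), and Ece1, which matures endothelin, at 1891, 1901 and 2335 against 22.5, 137 and 21.6 (adjusted p = 0.00623). Nos3 no longer passed in 5 of the 6 fits that each left out 1 library (adjusted p up to 0.102). Spns2, which exports sphingosine 1-phosphate, was a VEC transcript at 75.5, 68.2 and 61.3 CPM against 0.0914, 0 and 0.174, a ratio of 741-fold (95% counting interval 253 to 3597). Sgpl1 and Sgpp1, which degrade that lipid, were higher in cTEC at 308, 299 and 226 (Sgpl1) and 184, 87.9 and 108 (Sgpp1) CPM against 61.7, 38.8 and 4.32 (Sgpl1) and 0.31, 8.49 and 0.108 (Sgpp1). Of 16 genes of sphingosine 1-phosphate and lysophospholipid handling tested, 7 were higher in VEC, Ppap2a and Ppap2b among them, and 3 in cTEC. The VEC count was 4 without cTEC replicate 3, and the cTEC count was 1 without cTEC replicate 1 or 3. Sgpl1 no longer passed in 4 of the 6 fits that each left out 1 library (adjusted p up to 0.0933, and 0.0677 without cTEC replicate 2) and Sgpp1 in 3 of these fits (adjusted p up to 0.0898).

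Retinoid, serine and one-carbon genes were called more often for cTEC, 5 against 1 of 12 tested and 8 against 3 of 27. Over all genes 9.2% were higher in VEC and 12.8% in cTEC, so the VEC shares of both lists were near that over all genes. For the serine, one-carbon and polyamine list the cTEC count was 5 without cTEC replicate 1, 2 or 3. Aldh1a1 and Aldh1a3, which make retinoic acid, stood at 163, 92.8 and 63.2 (Aldh1a1) and 144, 84.1 and 99.9 (Aldh1a3) CPM in cTEC and at no count (Aldh1a1) and 0, 0.131 and 0.108 (Aldh1a3) in VEC, and Rbp7, a retinol carrier of capillaries, at 634, 352 and 626 in VEC against 1.46, 15.2 and 0. Rbp7 no longer passed without cTEC replicate 1 (adjusted p = 0.0621). The serine synthesis enzymes Phgdh and Psat1 stood at 59.8, 62.3 and 66.9 (Phgdh) and 277, 371 and 550.0 (Psat1) CPM in cTEC against 0, 0.131 and 0.216 (Phgdh) and 0.103, 0 and 2.92 (Psat1) (adjusted p = 0.000963 and 0.00419). Cth, which makes cysteine, was higher in cTEC at 113, 146 and 135 against 0, 0.261 and 0 CPM, a ratio of 1741-fold (95% counting interval 482 to 14378). In VEC the polyamine catabolic enzyme Sat1 was 1.97 ± 0.25 higher (2337, 2342 and 2305 against 641, 731 and 413 CPM, adjusted p = 0.0023) and Glul, which makes glutamine, was 1.08 ± 0.22 higher. Of 47 redox and detoxification genes, 13 were higher in cTEC and 5 in VEC, the VEC share again near that over all genes. The metallothioneins Mt1 and Mt2 stood at 298, 319.8 and 336 (Mt1) and 91.5, 100.1 and 90.8 (Mt2) CPM in cTEC against 4.96, 1.18 and 2.16 (Mt1) and 0, 0.131 and 0.108 (Mt2) (adjusted p = 0.000432 and 0.00029), and Gpx3, a secreted peroxidase, at 175, 88.1 and 137 in cTEC against 1.55, 1.04 and 0.973. Gpx1, its cytosolic relative, was 1.69 ± 0.22 higher in VEC (777, 806 and 881 against 251, 303 and 211 CPM, adjusted p = 0.0023).

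Transporters split 13 to 12 of 40 tested. The water and glycerol channels Aqp1 and Aqp7 were higher in VEC at 807, 751 and 556 (Aqp1) and 711, 649 and 496 (Aqp7) CPM against 1.19, 3.18 and 0.174 (Aqp1) and 2.1, 4.28 and 0.783 (Aqp7) (adjusted p = 0.000928 and 0.000408), and Aqp3 had counts only in cTEC, at 50.1, 55.7 and 27.9. The taurine transporter Slc6a6 was 2.92 ± 0.25 higher in VEC (787, 577 and 627 against 88.4, 102 and 71.9 CPM, adjusted p = 0.000434). The drug efflux pump Abcb1a stood at 143, 128 and 134 against 0.366, 1.99 and 0.261 CPM (adjusted p = 0.00153). The glutamate transporter Slc1a3 and the amino acid transporter Slc38a4 were higher in cTEC, at 178, 102 and 182 (Slc1a3) and 102, 126 and 146 (Slc38a4) CPM against 0.413, 0.392 and 0.541 (Slc1a3) and 0.413, 0.131 and 0.216 (Slc38a4) (adjusted p = 9.60e-05 and 0.000159).

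**Figure D5:**
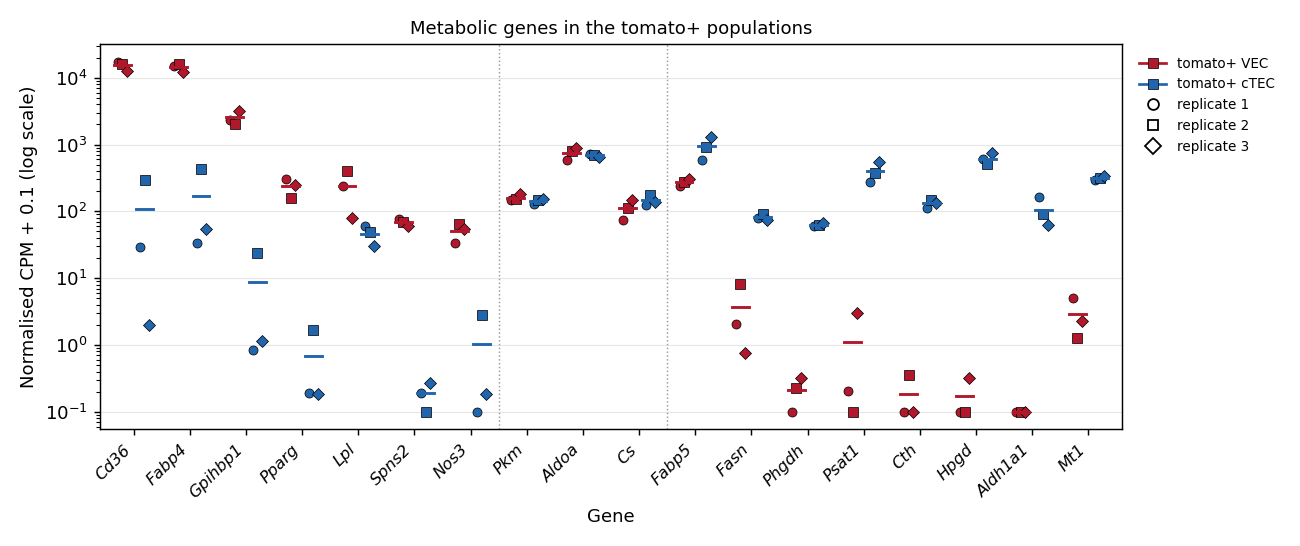
Normalised CPM plus 0.1 on a log axis (y) of 18 metabolic genes (x) in the 3 tomato+ VEC libraries (red) and the 3 tomato+ cTEC libraries (blue), with symbols for the replicate and bars for the mean. Dotted lines separate genes higher in VEC (left), genes that did not pass (Pkm, Aldoa and Cs) and genes higher in cTEC (right); the lowest VEC library of Fabp4 lies at 12160 CPM and the highest cTEC library at 425 CPM.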

How the data were processed

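RNA sequencing of sorted cells had been aligned by the submitters with TopHat2 2.0.10 to mouse build mm9, per the submitters' processing notes; no source used here names the counter, the annotation or the strand setting. Raw read counts and RPKM (reads scaled by the authors to gene length and library size) were deposited for 23306 gene symbols in each library. The counts as deposited were tested with edgeR 4.0.16 (R 4.3.3): filterByExpr with a minimum count of 10, TMM scaling, quasi-likelihood fit on the 6 libraries, and Benjamini-Hochberg adjustment over the 12510 genes kept, with genes called at an adjusted p under 0.05. Differences are log2 VEC minus cTEC, given as sizes with the higher group named; the standard error is the difference divided by the root of the F statistic. Where a group had no count, the fold is a lower bound against 3 counts over the group, and with 1 to 3 counts a ratio with a 95% counting interval; these cover counting error only. Biological coefficient of variation was 0.763 at 4 residual degrees of freedom. Differences between replicates exceeded sampling noise, so each library counts as 1. Alternatives used DESeq2 1.42.0 and limma 3.58.1, other filters and scalings, all 12 libraries, the replicate number as a block, the deposited RPKM, and each library left out. The procedure was tested on simulated counts.

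The 48 gene lists and 144 pairs, and the choice of the 2 populations, were made with earlier results of these data known. Genes were named as up to 3 members called per direction with the smallest p in each list, the 8 largest changes per direction without overlap, opposite pairs, and members that stand for a list's role, some of which were chosen after their values were seen. Promoter windows of 250 bases came from RefSeq on GRCm38.p6 by gene symbol, and no coordinates of mm9 were used. Of the tested genes, 40 had the same counts as another gene. Results for a few genes are not reported here.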

Additional observations from a re-analysis of the deposited data

How the results depend on the processing

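The count of genes higher in VEC (1151) ranged from 720 to 1096 when each library was left out in turn, with 720 without cTEC replicate 1 and 734 without cTEC replicate 3. The count higher in cTEC (1599) ranged from 1130 to 1695. Under the replicate block these counts were 800 and 764, and with limma on log2(RPKM + 1) they were 1113 and 2449. Correlations of same-numbered deviations were 0.0183, 0.0159 and 0.0669, and those of differently numbered libraries ran from -0.0459 to 0.0249. Not every library correlated best with its own number. Deviations of 3 libraries from their group mean are too few to tell whether the replicate numbers pair the libraries. The other alternatives gave 1042 to 1537 genes higher in VEC and 1161 to 2357 higher in cTEC. The median log2 difference of all genes moved from -0.04 to -0.38 with RPKM + 1, -0.54 with RPKM + 0.1, -0.29 with limma voom, -0.26 with the block and -0.11 with all 12 libraries. None of the named genes that passed the test changed direction under any of these alternatives. Of the genes named without a call, Icam1 went to -0.0217 with DESeq2 and with relative log expression scaling, -0.0162 with at least 5 CPM, -0.256 and -0.258 with RPKM + 1 and RPKM + 0.1, and -0.0804 to 0.138 with a library left out; with those 2 RPKM settings Fn1 went to -0.0142 and -0.0150, Aldoa to -0.18 with both and Pkm to -0.139 and -0.141. The cause of these changes was not tested. Of the 359 genes so followed, calls were lost for 62 under the replicate block and for 22 to 56 when a library was left out. Transcripts at a few counts limit the folds given as bounds, and 3 libraries a group limit the spread that could be estimated.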

Other observations

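Of 28 lineage transcription factors tested, 9 were higher in VEC and 10 in cTEC, against 9.2% and 12.8% of all genes tested. Foxn1, the regulator of thymic epithelial identity, stood at 0.103, 0 and 0.216 CPM in VEC and 57.7, 77.6 and 80.6 in cTEC, a ratio of 638-fold (95% counting interval 218 to 3094). Pax1, a factor of the pharyngeal pouch from which the thymus grows, stood at 0.103, 0.261 and 0.108 against 230.2, 164 and 127 CPM (adjusted p = 8.99e-05). Trp63, the epithelial p53 relative, stood at 0.207, 0.261 and 6.6 against 619, 623 and 407 CPM (adjusted p = 0.00643). On the VEC side Sox7 and Sox17, of the endothelial SoxF family, stood at 410.5, 162 and 208 (Sox7) and 89.1, 121 and 49.6 (Sox17) CPM against 0, 0.597 and 0 and 1.55, 2.19 and 0 (adjusted p = 0.00117 and 0.0129). Sox18 of that family stood at 334, 185 and 187 against 0.0914, 14.5 and 0 CPM and passed when cTEC replicate 2 was left out (adjusted p = 0.0603, then 0.000294), as did the venous factor Nr2f2 (adjusted p = 0.0554, then 0.032). Klf2, a shear-responsive factor, was 2.15 ± 0.44 higher in VEC on the log2 scale (746, 669 and 328 against 169, 152 and 70.9 CPM, adjusted p = 0.0128).

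Of 30 cell-cycle genes tested, 3 were higher in VEC and 4 in cTEC, shares near the 9.2% and 12.8% of all genes. The cTEC count was 2 without VEC replicate 2 or any of the cTEC replicates. The cyclin-dependent kinase inhibitor Cdkn1a stood at 449, 262 and 271 CPM in VEC and 38.2, 42.2 and 43.3 in cTEC (difference 2.99 ± 0.30, adjusted p = 0.000773), and cyclin D1, encoded by Ccnd1, at 75.9, 96 and 86.6 against 20.8, 21 and 12.5 (difference 2.25 ± 0.39, adjusted p = 0.00805). Tpx2, a spindle protein, stood at 0, 0.131 and 0.108 against 13.8, 37.6 and 39 CPM, a ratio of 399.9-fold (95% counting interval 110.4 to 3307). Mki67 and Top2a, which are high in dividing cells, varied within both groups: Mki67 stood at 3.93, 8.36 and 30.1 CPM in VEC and 0.823, 91.5 and 44.1 in cTEC, and Top2a at 0.103, 0.261 and 17.1 against 8.96, 64.1 and 18. Neither passed (adjusted p = 0.484 and 0.425). Among 20 immediate early and heat-shock genes, which tissue dissociation can raise, 6 were higher in VEC and 2 in cTEC, with 3 in VEC without cTEC replicate 1, and 1 in cTEC without any single library other than VEC replicate 2. Egr1 stood at 1682, 1305 and 1164 CPM in VEC and 698, 674 and 724 in cTEC, Nr4a1 at 188, 336 and 263 against 56.4, 92.8 and 67.6, and Dusp1 at 989.8, 1331 and 671 against 379, 311 and 187 (adjusted p = 0.0143, 0.00757 and 0.0126). Fos overlapped between the groups at 3750.4, 4043 and 2509.8 against 2649, 2644 and 1931 CPM (adjusted p = 0.219). Dnajb1, a heat-shock cochaperone, was 1.15 ± 0.22 higher in cTEC (301, 409 and 386 against 168, 179 and 147 CPM, adjusted p = 0.0109). Egr1 no longer passed without cTEC replicate 1 (adjusted p = 0.0557).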
